A study of Mus musculus with 12 samples.

Results

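Adm, Calcrl, Ramp1, Ramp2, Ramp3, Edn1, Ece1, Nos3, Ace and S1pr1 encode ligands, processing enzymes and receptors through which endothelial cells act on vessel tone and permeability. The 10 genes were taken by their symbols from deposited tables that list 24421 genes each, and all 10 are present in all 12 tables. 9 of them passed the filter on low values and entered the tests. Ramp1 did not and is given by its values alone.

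Lung endothelial cells of the C57BL/6J strain had been sorted by flow cytometry at postnatal day 5, and their RNA was sequenced from the 3′ ends of transcripts in 3 groups of 4 libraries. The WT group is labelled wild type, and whether these mice carried Cre or received the inducer is not stated in the sources used here. The L12-ECKO group, titled LATS1/2-ECKO, carried VE-cadherin-CreERT2, a Cre recombinase that an endothelial cadherin promoter drives and that tamoxifen-type ligands switch on, together with floxed Lats1 (Lats1f/f) and floxed Lats2 (Lats2 f/f). The L12YT-ECKO group, titled LATS1/2;YAPTAZ-ECKO, carried the same driver and the same Lats1 and Lats2 alleles, and floxed Yap (Yapf/f) and floxed TAZ (TAZf/f) in addition. LATS1 and LATS2 are the kinases of the Hippo pathway that restrain the transcriptional co-activators YAP and TAZ. The sources used here do not say which exons are flanked, when the inducer was given, or whether each library was made from its own animal, so p-values measure only the spread between these libraries. In cells sorted in bulk, fewer cells of a type and less RNA per cell cannot be told apart.

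Endothelin-1, the product of Edn1, is among the strongest known vasoconstrictors and is released in an active form after the membrane protease ECE1 cuts its precursor. Adrenomedullin, the product of Adm, dilates vessels and tightens the endothelial barrier through CALCRL, a receptor that reaches the cell surface only with a RAMP partner, and RAMP2 or RAMP3 make it an adrenomedullin receptor whereas RAMP1 makes it a receptor for calcitonin gene-related peptide. In the lung, NOS3 makes the vasodilator nitric oxide, ACE turns angiotensin I into angiotensin II and degrades bradykinin, and S1PR1 receives sphingosine 1-phosphate from plasma and keeps endothelial junctions closed.

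Values are the authors' normalized log2 expression, on which 1 unit is a doubling, and differences are between group means on that scale. Between 9850 and 13078 genes lay above 0 per library, and the read depth is unknown. In the tables of 5 libraries, those of L12-ECKO replicates 2 to 4 and of L12YT-ECKO replicates 3 and 4, 32 consecutive rows stand 1 row out of place, which marks a difference in how these tables were made. None of the 10 genes lies in that block. The L12-ECKO libraries with displaced rows are also the 3 of that group with a female pattern of Xist and Ddx3y, so the division and sex cannot be told apart there. WT and L12YT-ECKO each held 1 female library among 4, so sex was unbalanced between the groups compared. Wwtr1, which encodes TAZ, had mean levels of 11.81, 11.18 and 8.81 in WT, L12-ECKO and L12YT-ECKO, and Yap1 9.79, 9.97 and 7.72. Lats2, at 8.93, 9.93 and 8.97, was not lower in the deletion groups, and Lats1 was low, at 5.32 to 7.45 in WT, 0 to 7.40 for L12-ECKO and 0 to 7.90 for L12YT-ECKO. Tags at the 3′ end, outside a deleted part, check nothing. Ctgf and Cyr61, well-known YAP and TAZ target genes, had 7.62, 13.80 and 9.57 and 7.83, 12.05 and 8.57. The means of 12 pan-endothelial markers, a list that holds Ramp2 and Calcrl, were 13.13 to 13.39 in WT, 12.84 to 13.10 for L12-ECKO and 13.07 to 13.39 for L12YT-ECKO. None of the 12 was at 0 throughout a group. Egfl7 was at 17.718 in every library and so did not differ between groups. In L12-ECKO minus WT 2 of the 12 lay above 0 and the others except Egfl7 below. Over all genes tested 51% lay below 0. The median of the 12 was -0.36, beside -0.02 over all genes tested. In L12YT-ECKO minus WT 4 of the 12 lay above 0 and the others except Egfl7 below, where 45.7% of all genes tested lay below 0. The median of the 12 was -0.12 there, beside 0.08 over all genes tested.

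In the L12-ECKO libraries the transcript of endothelin-1 was raised about 3-fold over WT. It was 1 of the 56 genes called among 11634 tested, which is 0.481% of them (34 higher, 0.292%, and 22 lower, 0.189%), and the only member called among the 9 tested. The transcripts of the adrenomedullin receptor subunits had lower values in L12-ECKO, and those of Ece1 and Adm higher ones, but none of these differences passed the threshold of an adjusted p under 0.05. Between L12YT-ECKO and WT limma called no member, in a comparison in which 1 gene, 0.0086% of all tested, was called. There 0 of the 9 had an unadjusted p under 0.05, against 6.23% of all genes tested. Between L12YT-ECKO and L12-ECKO it called no member either, with 6 of the 9 at an unadjusted p under 0.05, against 6.09% of all genes tested. In L12-ECKO versus WT the libraries of the 2 groups did not overlap for 5 of the 9 members, higher for Edn1, Ece1 and Adm and lower for Calcrl and Ramp3, where 6.33% of all genes tested did not overlap (2.97% higher and 3.36% lower).

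Edn1 lies on chromosome 13 (42301476 to 42307990, plus strand of GRCm38, the build also called mm10) and its annotated transcript has 5 exons. The antisense gene Gm47118, not analysed here, shares 35 exon bases with it. Its levels were 10.72, 10.996, 10.95 and 10.17 in the WT libraries. They were 13.02, 12.04, 11.57 and 12.73 in L12-ECKO replicates 1 to 4. Those of L12YT-ECKO had 11.21, 10.46, 10.69 and 11.16. Every L12-ECKO library thus lay above every WT and every L12YT-ECKO library, and the other two groups overlapped. The group means were 10.71 ± 0.38 in WT, 12.34 ± 0.66 for L12-ECKO and 10.88 ± 0.36 for L12YT-ECKO (SD, n = 4 each). Edn1 rose by 1.63 on the log2 scale in L12-ECKO (SE 0.322, 95% interval 0.96 to 2.30), a 3.09-fold difference with an adjusted p of 0.0284 in limma, and it ranked 28 by p among all genes tested.

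The call of Edn1 had little margin. In limma it was lost without WT replicate 1 (a difference of 1.63, adjusted p = 0.0787), WT replicate 2 (1.72, 0.0757) or WT replicate 4 (1.45, 0.0905). It was also lost without L12-ECKO replicate 1 (1.40, 0.0924), replicate 2 (1.73, 0.0544) or replicate 4 (1.499, 0.0755). The call was lost as well without the filter on low values (1.63, 0.0560) and without the trended, robust prior of limma (1.63, 0.184). The direction was the same in each of these. With the displaced rows as a covariate the difference was 1.88 and the adjusted p 0.0921. Among the 7 libraries with rows in place, which hold 1 L12-ECKO library that is assumed to vary like the others, it was 2.31 with an adjusted p of 0.0469. The mean of the 3 L12-ECKO libraries with displaced rows was 12.11, and all WT libraries have their rows in place. L12-ECKO replicate 1, the library with the highest Edn1, was also the one with the highest mean of 9 immune markers, at 7.81 against 2.14 to 4.02 in the other L12-ECKO libraries and 1.29 to 4.02 in WT. Cd3e was at 0 throughout WT. In L12YT-ECKO the mean of these markers was 2.37 to 3.83. Without L12-ECKO replicate 1 the Edn1 difference was 1.40, and the part of immune cells was not tested further. The means of 15 liver markers were 1.27 to 2.59 in WT and 1.82 to 6.48 in L12-ECKO, and in L12YT-ECKO 1.21 to 5.10. Of these 15, 7 (Ttr, Fgb, Fgg, Apoc3, Afp, Apob and Ambp) were at 0 throughout WT, and Afp throughout L12-ECKO. With this mean as a covariate the Edn1 difference was 1.99 (adjusted p = 0.0426). With sex as a covariate instead, the Edn1 difference was 1.94 (adjusted p = 0.0155 in limma).

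**Figure D1:**
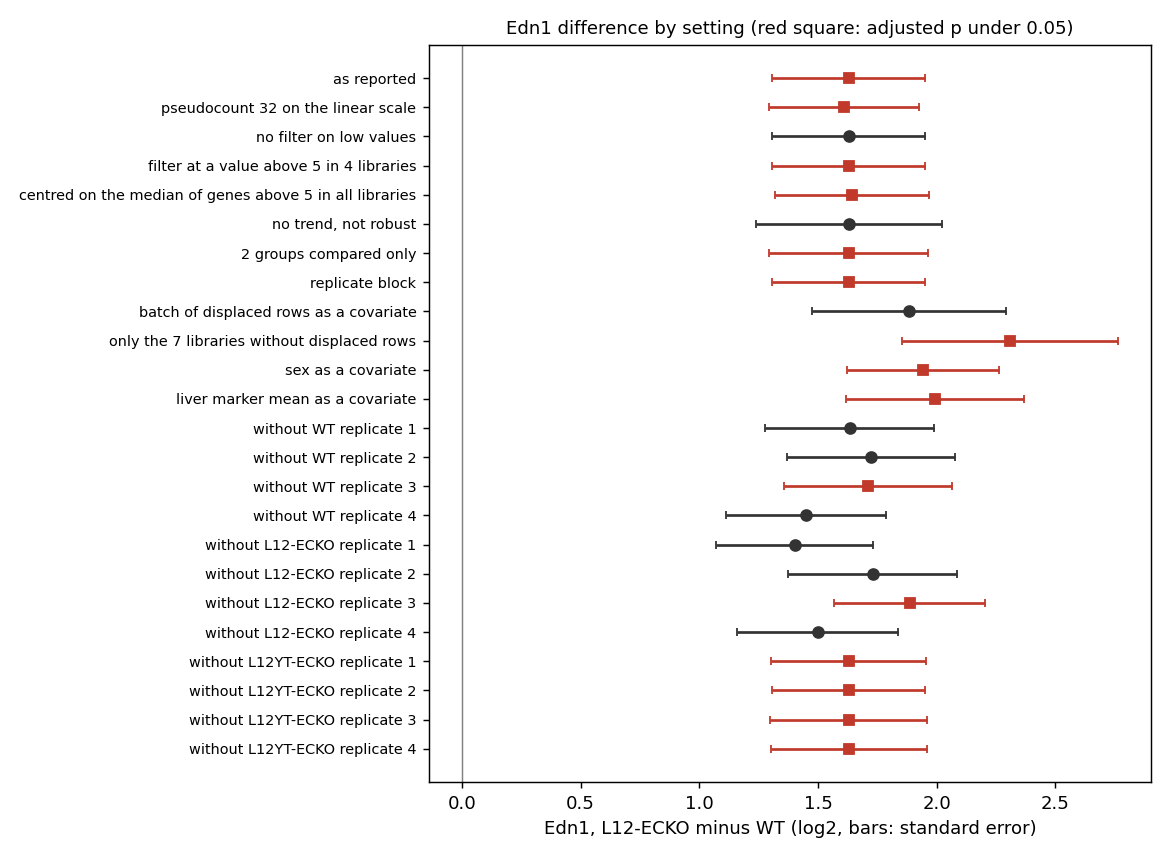
Difference in Edn1 between L12-ECKO and WT (log2, horizontal axis) under each processing setting (vertical axis), with bars of 1 SE and red squares where the adjusted p was under 0.05. The difference lay between 1.40 and 2.31 in every setting drawn, and 9 of the alternatives, drawn without a red square, lost the call.

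Between the groups with floxed Lats1 and Lats2, Edn1 was lower by more than a log2 unit in L12YT-ECKO, without being called. L12YT-ECKO minus L12-ECKO was -1.46 (SE 0.322, 95% interval -2.13 to -0.79), 2.75-fold lower, with an unadjusted p of 0.000224 and an adjusted p of 0.129 in limma. It ranked 20 by p, in a comparison in which 8 genes, or 0.0688% of those tested, were called (1 higher, 0.0086%, and 7 lower, 0.0602%). L12YT-ECKO minus WT was 0.17, with an interval from -0.50 to 0.84 (adjusted p = 0.948), and 0.34 with the displaced rows as a covariate. Both comparisons share samples with the one between L12-ECKO and WT, so they are not independent of it. Among the 5 libraries with displaced rows L12YT-ECKO minus L12-ECKO was -1.19, and among the 7 with rows in place -2.18, and Edn1 was not called in either (adjusted p = 0.990 and 0.152).

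The stretch before the RefSeq start of Edn1 is shown because that gene was called, and those of Ramp3 and Adm for comparison, the one a receptor partner and the other the vasodilator ligand. Capitals mark CATTCC, the core letters that TEAD factors, the DNA-binding partners of YAP and TAZ, are known to recognise. The sequences are from RefSeq (GRCm38.p6), 5′ to 3′ on the plus strand, at chr13:42301226-42301475 for Edn1, chr11:6658283-6658532 for Ramp3 and chr7:110627407-110627656 for Adm.
Edn1: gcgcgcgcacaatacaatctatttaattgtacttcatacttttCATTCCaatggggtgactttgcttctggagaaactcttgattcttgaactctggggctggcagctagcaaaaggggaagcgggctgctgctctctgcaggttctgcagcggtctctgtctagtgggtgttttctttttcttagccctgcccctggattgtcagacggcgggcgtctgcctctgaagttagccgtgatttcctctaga
Ramp3: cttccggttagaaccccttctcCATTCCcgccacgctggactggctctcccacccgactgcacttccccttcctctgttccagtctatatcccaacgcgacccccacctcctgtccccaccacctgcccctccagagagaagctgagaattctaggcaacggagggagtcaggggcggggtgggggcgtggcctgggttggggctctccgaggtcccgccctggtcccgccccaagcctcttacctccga
Adm: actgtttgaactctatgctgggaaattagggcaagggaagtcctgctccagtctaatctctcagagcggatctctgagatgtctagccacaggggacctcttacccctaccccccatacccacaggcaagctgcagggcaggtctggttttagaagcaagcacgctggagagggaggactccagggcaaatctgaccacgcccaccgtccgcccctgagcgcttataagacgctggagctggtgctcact
CATTCC was searched on both strands (GGAATG on the other) in windows from 250 bases before to 50 bases after each start. It stood 207 to 202 bases before the start of Edn1 and 228 to 223 bases before that of Ramp3, on the plus strand in both. 7 of the 10 genes have windows in the table, 11 in all, and these were the 2 windows with a match. Of all 32851 promoter windows 14.7% hold it, so a match in 2 of 11 is near the background share. Ramp2, Nos3 and S1pr1 have no window in the table used.

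Ece1 (chromosome 4, 137862237 to 137965229, plus strand, 20 exons in its longest coding transcript) encodes the protease that releases endothelin-1. Its levels were 12.74, 12.76, 13.15 and 12.91 in WT. The L12-ECKO libraries had 13.55, 13.43, 13.69 and 13.86. Those of L12YT-ECKO had 12.94, 12.83, 13.54 and 13.36. The L12-ECKO libraries lay above all WT libraries without overlap, while L12YT-ECKO overlapped both groups. L12-ECKO minus WT was 0.74 (SE 0.209, 95% interval 0.30 to 1.18), which is 1.67-fold, and was not called (adjusted p = 0.145 in limma). With the displaced rows as a covariate the difference was 0.46 (adjusted p = 0.692). Among the 7 libraries with rows in place it was 0.66. The L12YT-ECKO libraries with displaced rows, with a mean of 13.45, lay above those with rows in place, with a mean of 12.88. L12YT-ECKO minus L12-ECKO was -0.46 (-0.90 to -0.03, adjusted p = 0.796), and -0.21 among the 5 libraries with displaced rows. L12YT-ECKO minus WT was 0.28 (-0.16 to 0.71, adjusted p = 0.863), 0.089 with the covariate and -0.0083 among the 7 libraries with rows in place.

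Of the other endothelin genes, 5 of 9 listed were tested and limma called none in any comparison. At an unadjusted p under 0.05 there were 2 in L12-ECKO versus WT, 0 in L12YT-ECKO versus WT and 2 in L12YT-ECKO versus L12-ECKO. Over all genes tested 12.2%, 6.23% and 6.09% had one. Of these 5, 2 lay above 0 and 3 below in L12-ECKO minus WT, and their median of -0.20 stood beside -0.02 over all genes tested. The smallest p belonged to Pcsk5, a proprotein convertase, whose L12-ECKO libraries lay below all WT libraries. Its difference was -1.30 (SE 0.334, adjusted p = 0.103), from 10.18 ± 0.28 in WT to 8.88 ± 0.29 in L12-ECKO (SD, n = 4 each). Ednrb, the endothelin receptor of endothelial cells and a marker of the aerocyte capillary type, had 10.94 ± 0.33 in WT, 9.96 ± 0.82 for L12-ECKO and 11.40 ± 0.57 for L12YT-ECKO. The Ednrb difference between L12-ECKO and WT was -0.98 (adjusted p = 0.290). The means of the 8 aerocyte markers, Ednrb among them, were 9.51 to 10.10 in WT, 8.95 to 10.14 for L12-ECKO and 9.76 to 10.502 for L12YT-ECKO. Those of 8 general capillary markers, among which Edn1 is listed, were 11.78 to 12.16, 11.59 to 11.80 and 11.52 to 11.85, and none of either list was at 0 throughout a group. Of the aerocyte markers 6 of 8 lay below 0 in L12-ECKO minus WT, with a median of -0.93, and Apln, which was singled out after its values were seen, was called higher by 2.61. Of the general capillary markers 7 of 8 lay below 0, with a median of -0.37, and 2 were called lower (Sema3c and Cd93, likewise). The 1 marker of that list above 0 was Edn1 itself. Over all genes tested 51% lay below 0, 0.292% were called higher and 0.189% were called lower. The part of capillary composition in the endothelin values was not tested. Ece2, a relative of Ece1, had a difference of 2.70 with an SE of 1.85 (adjusted p = 0.557), its libraries overlapping.

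**Figure D2:**
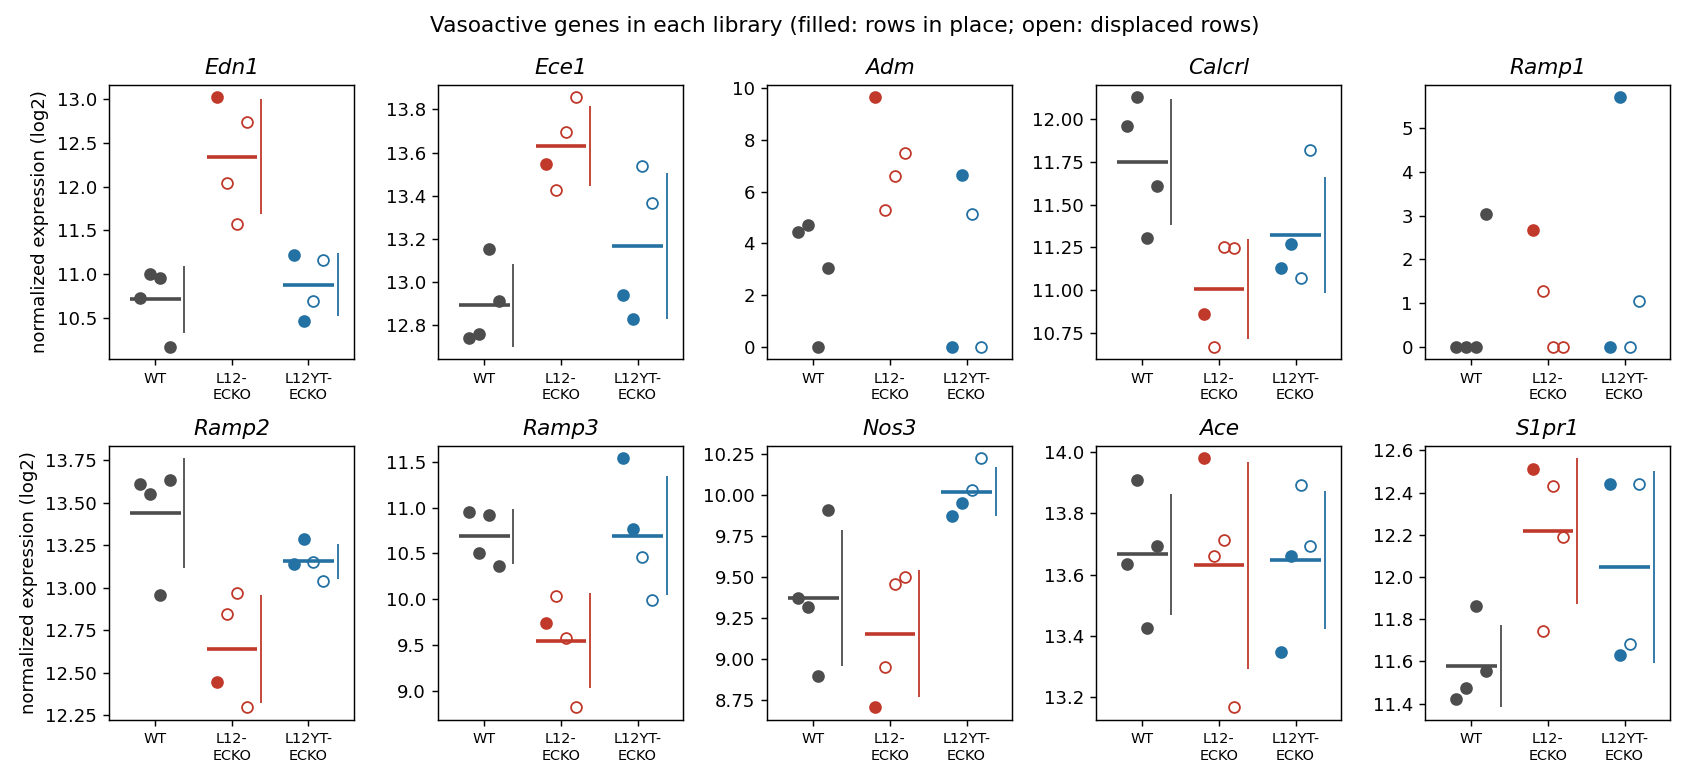
Normalized expression (log2, vertical axes, which do not start at 0 and differ between panels) of the 10 genes in each library of WT, L12-ECKO and L12YT-ECKO. Points are libraries (filled with rows in place, open with displaced rows), and thick lines and thin bars are means and SDs of 4 libraries, left out for Adm and Ramp1, which are listed at 0 in some. The 4 L12-ECKO points of Edn1, from 11.57 to 13.02, lie above all 8 others, and those of Calcrl and Ramp3 lie below all WT points.

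Adm (chromosome 7, 110627661 to 110629820, plus strand, 4 exons) encodes the adrenomedullin precursor, and its low values fall in steps. Its levels were 4.42, 4.71, 0 and 3.04 in the WT libraries, 9.64, 5.28, 6.62 and 7.50 for L12-ECKO and 0, 6.62, 5.15 and 0 for L12YT-ECKO. The 4 L12-ECKO libraries lay above the 4 WT libraries, and L12YT-ECKO spread over both. In the WT libraries the values above 0 were the 7th, 12th and 1st distinct step above 0, and in L12-ECKO the 695th, 38th, 99th and 119th. A value listed at 0 can be a transcript that was not sampled. The fitted L12-ECKO minus WT was 4.22 (SE 1.80, 95% interval 0.46 to 7.97) and was not called (adjusted p = 0.351 in limma). Its size depends on how low values are treated and on the libraries used. With 32 added on the linear scale it was 2.17 (adjusted p = 0.162), and among the 7 libraries with rows in place 6.602 (adjusted p = 0.790). For Adm L12YT-ECKO minus L12-ECKO was -4.32 (-8.07 to -0.56, adjusted p = 0.739), or -1.87 with 32 added, and the groups overlapped. The highest value of Adm, like that of Edn1, was in L12-ECKO replicate 1, the library with the highest immune marker mean, where S100a8 was at 15.20 and S100a9 at 15.56. The part of immune cells in the level of Adm was not tested.

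Calcrl (chromosome 2, 84330626 to 84425411, minus strand, 16 exons) encodes the receptor that binds adrenomedullin. Its levels were 11.96, 12.12, 11.30 and 11.61 in WT. The L12-ECKO libraries had 10.86, 10.67, 11.26 and 11.25. Those of L12YT-ECKO had 11.13, 11.27, 11.07 and 11.82. The L12-ECKO libraries lay below all WT libraries, by a narrow margin of the lowest WT library, and L12YT-ECKO overlapped both. The Calcrl difference between L12-ECKO and WT was -0.74 (SE 0.271, 95% interval -1.31 to -0.17), with an adjusted p of 0.264 in limma. Against L12-ECKO, the L12YT-ECKO mean of Calcrl differed by 0.31 (-0.25 to 0.88, adjusted p = 0.954).

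Ramp2 (chromosome 11, 101246028 to 101259546, plus strand, 4 exons), the partner with which CALCRL forms an adrenomedullin receptor, had 13.61, 13.56, 12.96 and 13.64 in WT. Its levels were 12.45, 12.85, 12.97 and 12.30 for L12-ECKO and 13.14, 13.29, 13.15 and 13.04 for L12YT-ECKO. WT replicate 3 was the only WT library within the L12-ECKO range, and the L12YT-ECKO libraries lay above all L12-ECKO libraries. For Ramp2 the L12-ECKO mean differed from WT by -0.80 (SE 0.218, 95% interval -1.26 to -0.34) with an unadjusted p of 0.0016 and an adjusted p of 0.128 in limma. Against L12-ECKO, that of L12YT-ECKO differed by 0.51 (0.06 to 0.97, adjusted p = 0.743). Vps25, a gene on the same strand, shares 1103 exon bases with Ramp2 in the annotation. Its differences in the same 2 comparisons were -0.16 and 0.11, and its values correlated with those of Ramp2 at r = 0.311 over the 12 libraries.

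Ramp3 (chromosome 11, 6658521 to 6677475, plus strand, 3 exons), the other adrenomedullin partner, had 10.96, 10.503, 10.92 and 10.36 in WT. Its levels were 9.74, 10.04, 9.58 and 8.82 for L12-ECKO and 11.54, 10.77, 10.46 and 9.99 for L12YT-ECKO. The L12-ECKO libraries lay below all WT libraries, and the lowest L12YT-ECKO library fell just inside the L12-ECKO range. L12-ECKO minus WT was -1.14 (SE 0.356, 95% interval -1.89 to -0.40, adjusted p = 0.185 in limma), and -0.66 with the displaced rows as a covariate (adjusted p = 0.757). L12YT-ECKO minus L12-ECKO was 1.15 (0.40 to 1.89, adjusted p = 0.539) and 0.75 among the 5 libraries with displaced rows. The third difference, L12YT-ECKO minus WT, was 0.01 (-0.74 to 0.75, adjusted p = 0.998), 0.33 with the covariate and 0.47 among the 7 libraries with rows in place. L12YT-ECKO had a mean of 11.15 where rows were in place and 10.23 where they were displaced. Among the 7 libraries with rows in place, L12-ECKO minus WT was -0.89 for Calcrl, -0.99 for Ramp2 and -0.94 for Ramp3, none of them called. The overlapping pseudogene Gm11978 was at 0 in 11 of the 12 libraries.

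Ramp1 (chromosome 1, 91179822 to 91225196, plus strand, 3 exons) was near the floor and was not tested. It was listed at 0 in WT replicates 1, 2 and 3 and at 3.04 in WT replicate 4. L12-ECKO had 2.67, 1.28, 0 and 0, and L12YT-ECKO had 0, 5.70, 0 and 1.03. No group stood apart in these values.

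The other genes around adrenomedullin and its relative calcitonin gene-related peptide were listed with 10 entries, of which 6 were tested. Limma called none of them in any comparison, and 2, 0 and 1 had an unadjusted p under 0.05 in L12-ECKO versus WT, L12YT-ECKO versus WT and L12YT-ECKO versus L12-ECKO (12.2%, 6.23% and 6.09% of all genes tested). In L12-ECKO minus WT 2 lay above 0 and 4 below, with a median of -0.02, the same as over all genes tested. Pam, which adds the terminal amide that active adrenomedullin carries, had 10.76 ± 0.21 in WT against 9.98 ± 0.39 in L12-ECKO (SD, n = 4 each), with every L12-ECKO library below WT and a difference of -0.78 (adjusted p = 0.264 in limma). Ackr3, a receptor that takes up adrenomedullin without signalling through G proteins, had 11.51 ± 0.37 and 12.31 ± 0.56, a difference of 0.81 (adjusted p = 0.289), its libraries overlapping. Mme, a peptidase that degrades vasoactive peptides, had a difference of 1.14 with an SE of 1.87 (adjusted p = 0.841). Mme was at 0 in some libraries, and its difference was -0.97 among the 7 libraries with rows in place.

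**Figure D3:**
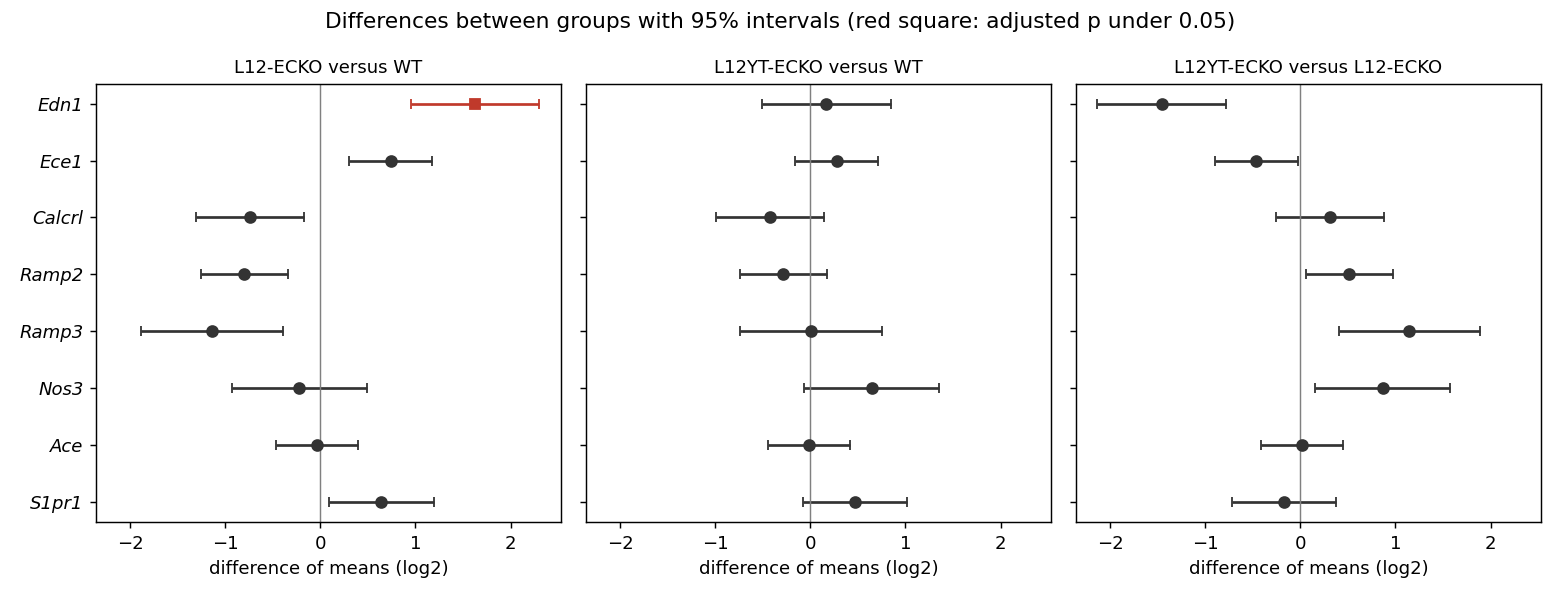
Differences between group means (log2, horizontal axis) with 95% intervals from limma for 8 genes (vertical axis) in the 3 comparisons. The red square marks the one called difference, Edn1 in L12-ECKO minus WT at 1.63, and every interval in L12YT-ECKO minus WT spans 0.

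Nos3 (chromosome 5, 24364810 to 24384474, plus strand, 26 exons) encodes the endothelial nitric oxide synthase. Its levels were 9.37, 9.32, 8.90 and 9.91 in WT. The L12-ECKO libraries had 8.71, 8.96, 9.46 and 9.50. Those of L12YT-ECKO had 9.87, 9.95, 10.03 and 10.22, all above the L12-ECKO libraries, with WT replicate 4 inside their range. L12-ECKO minus WT was -0.22 (SE 0.339, 95% interval -0.93 to 0.49, adjusted p = 0.827 in limma). L12YT-ECKO minus L12-ECKO was 0.86 (0.16 to 1.57, adjusted p = 0.704), and L12YT-ECKO minus WT 0.65 (-0.06 to 1.35, adjusted p = 0.811). The WT and L12-ECKO libraries overlapped, and none of the 3 differences was called. The first of them was -0.67 among the 7 libraries with rows in place, where the mean of WT was 9.37 and the 1 L12-ECKO library was at 8.71.

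The values listed for Nos3 cannot be assigned to that gene alone. Atg9b, an autophagy gene on the minus strand at 24384181 to 24392143, ends within Nos3, and the 2 genes share 294 exon bases at their 3′ ends, the part that these libraries read. Their deposited values were equal in 3 of the 12 libraries, to a tolerance of 5e-04, and differed by at most 0.227. Over the 12 libraries the Pearson correlation was 0.988. The annotated antisense gene Gm15587, not analysed here, shares a further 1040 exon bases with Nos3. Whether reads were counted by strand is not given in the sources used here, so reads of these genes cannot be told apart. Atg9b differed by -0.26 in L12-ECKO minus WT, by 0.57 in L12YT-ECKO minus WT and by 0.83 in L12YT-ECKO minus L12-ECKO (adjusted p = 0.789, 0.827 and 0.724).

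**Figure D4:**
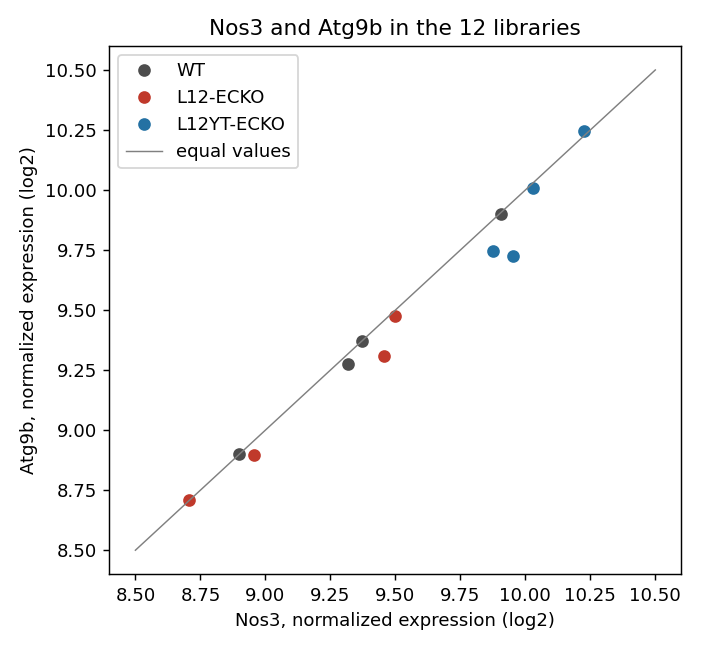
Normalized expression (log2) of Nos3 (horizontal axis) and Atg9b (vertical axis), with 1 point for each of the 12 libraries coloured by group and a line of equal values. The points lie on or close to the line, with a largest difference of 0.227.

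Of 30 further genes listed for nitric oxide, 27 were tested and none was called in any comparison by limma, with 3, 0 and 3 at an unadjusted p under 0.05 in the same order of comparisons. The shares over all genes tested were 12.2%, 6.23% and 6.09%. In L12-ECKO minus WT 12 lay above 0 and 15 below, with a median of -0.10. Cav1, whose product caveolin-1 binds the synthase and holds it inactive, had 13.06 ± 0.34 in WT against 12.38 ± 0.17 in L12-ECKO (SD, n = 4 each), and the L12-ECKO libraries lay below all WT libraries (difference -0.68, adjusted p = 0.261 in limma). Ddah1, whose product removes a methylarginine that inhibits the synthase, had a difference of 0.79 (adjusted p = 0.397), its libraries overlapping.

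Ace (chromosome 11, 105967945 to 105989964, plus strand, 25 exons) encodes the angiotensin-converting enzyme, and none of its differences was called. Its levels were 13.64, 13.91, 13.43 and 13.69 in WT, 13.98, 13.66, 13.71 and 13.17 for L12-ECKO and 13.35, 13.66, 13.89 and 13.69 for L12YT-ECKO. The 3 groups overlapped throughout. The 95% interval of L12-ECKO minus WT reached from -0.47 to 0.40, that of L12YT-ECKO minus WT from -0.45 to 0.41, and that of L12YT-ECKO minus L12-ECKO from -0.41 to 0.45. Their centres were -0.04, -0.02 and 0.02 (adjusted p = 0.960, 0.994 and 0.994 in limma), and the sign of each turned in some settings. The antisense gene Gm11651, which shares 295 exon bases with Ace, was at 0 in 10 of the 12 libraries.

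Of 17 other angiotensin and kinin genes 5 were tested, 3 above 0 and 2 below in L12-ECKO minus WT with a median of 0.48. Limma called none in any comparison, and 0 had an unadjusted p under 0.05. Over all genes tested the shares were 12.2% in L12-ECKO versus WT, 6.23% in L12YT-ECKO versus WT and 6.09% in L12YT-ECKO versus L12-ECKO. Atp6ap2, the prorenin receptor, had a difference of 0.59 (adjusted p = 0.475 in limma), Kng1, the precursor of bradykinin that the liver makes, one of 2.52 (0.623), and Prcp, a peptidase that cleaves angiotensin II, one of 0.48 (0.705). Kng1 and Prcp differed by -0.92 and -0.51 with the liver marker mean as a covariate, so their direction depends on that setting.

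S1pr1 (chromosome 3, 115710433 to 115715072, minus strand, 2 exons) had 11.42, 11.48, 11.86 and 11.55 in WT. Its levels were 12.51, 11.74, 12.43 and 12.19 for L12-ECKO and 12.44, 11.63, 11.68 and 12.44 for L12YT-ECKO. L12-ECKO replicate 2 alone lay within the WT range, and L12YT-ECKO was divided into 2 higher and 2 lower libraries, each pair holding 1 library with displaced rows. For S1pr1 the L12-ECKO mean differed from WT by 0.64 (SE 0.263, 95% interval 0.09 to 1.19, adjusted p = 0.334 in limma), and by 0.93 among the 7 libraries with rows in place. L12YT-ECKO minus WT was 0.47 (-0.08 to 1.02, adjusted p = 0.817), and L12YT-ECKO minus L12-ECKO -0.17 (-0.72 to 0.38, adjusted p = 0.975). The latter was -0.475 among the 7 libraries with rows in place and -0.060 among the 5 with displaced rows.

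Of 19 further sphingosine 1-phosphate genes 12 were tested and none was called by limma, with 1, 2 and 2 at an unadjusted p under 0.05 in the order of comparisons given above, against 12.2%, 6.23% and 6.09% of all genes tested. In L12-ECKO minus WT 5 lay above 0 and 7 below, with a median of -0.01. Gnai2, a G protein subunit through which S1PR1 signals, had 13.37 ± 0.15 in WT, 12.52 ± 0.49 for L12-ECKO and 13.08 ± 0.20 for L12YT-ECKO (SD, n = 4 each). Every L12-ECKO library of Gnai2 lay below WT, by a mean of -0.85 (SE 0.234, adjusted p = 0.133 in limma). Ppap2a, a lipid phosphatase, differed by -0.45 (adjusted p = 0.502). S1pr2, another receptor of the family, differed by 2.31 with an SE of 1.58 (adjusted p = 0.559).

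Over the 9 tested members the median of L12-ECKO minus WT was -0.04, of L12YT-ECKO minus WT 0.01 and of L12YT-ECKO minus L12-ECKO 0.02, beside -0.02, 0.08 and 0.09 over all genes tested. In L12YT-ECKO versus WT no member's libraries were without overlap (4.7% of all genes tested, 2.54% higher and 2.17% lower), and in L12YT-ECKO versus L12-ECKO those of 3 members were, Ramp2 and Nos3 higher and Edn1 lower (4.38% of all genes tested, 2.75% higher and 1.62% lower). The members with an unadjusted p under 0.05 numbered 7 in L12-ECKO versus WT, 0 in L12YT-ECKO versus WT and 6 in L12YT-ECKO versus L12-ECKO, and the shares over all genes tested were 12.2%, 6.23% and 6.09%. The first and last of these comparisons share the L12-ECKO libraries, so their counts are not independent.

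Among 4920 other genes with a mean of at least 8, those most like Edn1 by Pearson correlation over the 12 libraries were D17H6S56E-5 (r = 0.908), Serinc3 (0.888) and Crim1 (0.884). For Adm, with 4921 candidates, Mtdh came first, then Klhdc10 (r = 0.822) and Cdc123 (r = 0.812). For Nos3 they were Atg9b (0.988), Dync1li2 (0.960) and Sgce (0.851). These are descriptions of 12 libraries that share 3 groups, picked as the highest of all candidates.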

How the data were processed

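The deposited values are log2 expression per gene in 12 tables, already normalized by the authors. That they are log2 and quantile normalized was read from the values (the 5000 highest ranks differ by at most 0.168 between libraries). Trizol extraction and QuantSeq 3′ libraries from total RNA are described in the labels' protocols. The tools Bowtie2 and edgeR and the build mm10 were used by the authors per the submitters' processing notes, which as used here give no roles or versions. Quantile normalization removes differences in total output and can shift genes where a library holds transcripts of other cells. Counts and depth could not be recovered, so a value of 0 sets no limit.

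27 genes with changed names and 34 displaced or exchanged rows were left out, leaving 24360. Genes that reached a CPM of 1 in 4 or more libraries were tested, 11634 in all, with CPM taken from the deposited log2 values raised to the linear scale. limma 3.58.1 (R 4.3.3, statmod 1.5.0) fitted a mean per group over 12 libraries with a trended, robust prior, and p-values were adjusted over all genes tested by the Benjamini-Hochberg method. The scripts were tested on simulated data. The design named limma for log2 values and a count test in its place for whole counts. The values were used without a second logarithm, which was run as an alternative. Replicates were compared, and no 2 libraries were identical.

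Members, gene lists and markers were chosen with earlier results of these data known. Named were all members, called genes or up to 3 genes of smallest p in L12-ECKO versus WT per list, the targeted genes, and the 3 genes most like Adm, Edn1 and Nos3. For 1 gene so named no result is given. Coordinates and exons are from GENCODE for GRCm38. Alternatives were another pseudocount, filter, centring and prior, 2 groups alone, a replicate block, covariates for displaced rows, sex and liver markers, subsets by displaced rows, and single libraries left out.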

Additional observations from a re-analysis of the deposited data

Results flagged for a closer look

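2 of the 30 groups of 4 library values, 1 for each of the 10 genes in each genotype, had 1 library far from the others. Chance flags about 1 group in 20. Ramp2 was at 12.96 in WT replicate 3, while the other WT libraries lay between 13.56 and 13.64. Ramp1 was at 3.042 in WT replicate 4 and was listed at 0 in the other WT libraries, and that value is the lowest step above 0 in its library. With the others at 0 any value above 0 would have been flagged, so the rate of 1 in 20 does not apply to Ramp1.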

How the results depend on the processing

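Of 1082 alternatives for single genes, 1041 kept direction and side of the threshold, 9 lost a call (all of Edn1 in L12-ECKO versus WT), 1 gained one (Npr3) and 31 changed sign. 20 of the 27 member differences never changed sign in the alternatives run. Values listed at 0 limit Adm and Ramp1. The cause of these shifts was not tested.

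In L12-ECKO versus WT, 56 genes were called, 34 higher and 22 lower. Among the 7 libraries with rows in place the balance turned, with 18 higher and 31 lower, 12 of these 49 shared with the 56. The count was 27 with a second logarithm, 21 without the filter, 7 without trend and robust prior, 30 with the 2 groups alone, 15 with displaced rows or with sex as a covariate, and 17 with liver markers as one. Leaving out single libraries gave 15 to 79: 17, 15 and 27 without WT replicates 1, 2 and 4, 24, 22, 36 and 31 without L12-ECKO replicates 1 to 4, and 33 and 34 without L12YT-ECKO replicates 2 and 3. Of 9 members, 1 was called, and 0 without the filter, without trend and robust prior, or with displaced rows as a covariate (0 to 1 over single libraries left out). In L12YT-ECKO versus WT, 1 gene was called, 1 to 3 with single libraries left out (3 without WT replicate 1). In L12YT-ECKO versus L12-ECKO, 8 were called, 4 with a second logarithm, 3 without trend and robust prior, 5 with the 2 groups alone or sex as a covariate, and 14 among the 7 libraries with rows in place (11 higher and 3 lower, 2 of them shared with the 8, of which 1 was higher and 7 lower). Among the 5 with displaced rows, a subset chosen after seeing the data, limma called 0, with 395 genes at an unadjusted p under 0.05. Leaving out single libraries gave 4 to 9 (4 when replicate 2 of WT or L12YT-ECKO was left out, and 5 when L12-ECKO replicate 3 or replicate 1 or 3 of L12YT-ECKO was).

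The sign changed in these differences. Adm, L12YT-ECKO minus WT (-0.10), was 0.29 with 32 added, 0.79 with displaced rows and 0.48 with liver markers as covariates, 0.27 among the 7 libraries, and -1.32 to 0.88 with single libraries left out. Ramp3 in that comparison (0.01) was -0.00065 with a second logarithm, -0.014 centred, and -0.28 to 0.24 with single libraries left out. Edn1 (0.17) ranged from -0.010 to 0.31 with single libraries left out, and Ece1 (0.28) was -0.0083 among the 7 libraries. Ace was -0.15 to 0.12, -0.10 to 0.083 and -0.14 to 0.13 with single libraries left out in L12-ECKO minus WT, L12YT-ECKO minus WT and L12YT-ECKO minus L12-ECKO. In L12-ECKO minus WT Ace was 0.31 among the 7 libraries, and in L12YT-ECKO minus L12-ECKO it was -0.48 there and -0.016 centred. In L12-ECKO minus WT, Kng1 was -0.49, -1.53 and -0.92 with displaced rows, among the 7 libraries and with liver markers, Prcp -0.30 and -0.51 with displaced rows and liver markers, and Mme -0.97 among the 7 libraries.

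Same-numbered libraries of different groups did not deviate together (r of -0.046 to 0.058 over 12 pairs, none over the limit for pairing), so the numbers do not pair them. With the replicate block 43, 1 and 6 genes were called, and Edn1 in L12-ECKO versus WT was 1.63 (adjusted p = 0.0407 in limma).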

Other observations

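Of 14 prostanoid and natriuretic peptide genes, 6 were tested and limma called none in any comparison. At an unadjusted p under 0.05 there was 1 in L12-ECKO versus WT and 0 in the other comparisons. Over all genes tested the shares were 12.2% in L12-ECKO versus WT, 6.23% in L12YT-ECKO versus WT and 6.09% in L12YT-ECKO versus L12-ECKO. Of the 6, 2 lay above 0 and 4 below in L12-ECKO minus WT, with a median of -0.21 beside -0.02 over all genes tested. Npr3, the receptor that clears natriuretic peptides, had 10.69, 11.03, 12.33 and 11.16 in WT and 12.09, 11.78, 12.59 and 12.70 in L12-ECKO. All L12-ECKO libraries lay above WT replicates 1, 2 and 4, and WT replicate 3 lay among them. The difference was 0.99 (SE 0.320, adjusted p = 0.195 in limma), and without WT replicate 3 it was 1.33 and was called (adjusted p = 0.0374). Ptgis, the prostacyclin synthase, differed by 2.35 (SE 1.26, adjusted p = 0.457), and Npr2, the receptor of C-type natriuretic peptide, by -2.05 (SE 1.88, adjusted p = 0.685), both with overlapping libraries.

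Arterial endothelial markers, 8 genes, had means of 10.11 to 10.79 in WT, 9.41 to 9.89 for L12-ECKO and 10.21 to 10.66 for L12YT-ECKO. In L12-ECKO versus WT 2 of the 8 were called lower (Sox17 and Gja4, named after their values were seen) and 7 of 8 lay below 0, against 0.189% called lower and 51% below 0 over all genes tested. The part of arterial cells in the values of Edn1, Ece1 and Calcrl was not tested. Smooth muscle and pericyte markers, 10 genes, had means of 4.63 to 5.09 in WT, 2.78 to 4.48 for L12-ECKO and 3.84 to 6.19 for L12YT-ECKO, with Cox4i2 at 0 throughout WT. In L12-ECKO minus WT 6 of the 7 tested lay below 0, with a median of -2.53, and limma called none. At an unadjusted p under 0.05 there were 4, against 12.2% of all genes tested. Lung epithelial markers, 10 genes, had means of 5.06 to 7.05 in WT, 3.59 to 7.05 for L12-ECKO and 4.58 to 7.19 for L12YT-ECKO. Red cell and platelet markers, 9 genes, had 7.26 to 9.96, 7.36 to 9.27 and 8.10 to 9.35 in that order.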
